A study of Mus musculus with 2 samples.

Results

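The 8 genes described here (Mcpt8, Prss34, Cpa3, Ms4a2, Fcer1a, Gata2, Cd200r3 and Hdc) are genes of basophils and mast cells. They are a named list of genes, chosen with earlier results of these data known, and all 8 were present among the 26124 genes in the matrices. They were followed in cultures of mouse bone marrow cells, both as summed levels on each culture day and by their detection together in the same cells.

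Basophils and mast cells are rare granulocytes that carry the high-affinity receptor for IgE, store histamine and proteases in granules, and are known for their part in allergy and defence against parasites. Basophils complete their development in the bone marrow and circulate, whereas mast cells mature in tissues and rely on the receptor KIT. Both arise from bone marrow progenitors under the transcription factor GATA2, and the receptors for IL-3 and GM-CSF, the growth factor of these cultures, share the signalling chain encoded by Csf2rb. Among the 8 genes, Mcpt8 and Prss34 encode serine proteases of mouse basophil granules. Cpa3 encodes carboxypeptidase A3, a granule protease of mast cells and of basophils. Fcer1a and Ms4a2 encode the alpha and beta chains of the IgE receptor, Hdc encodes the enzyme that makes histamine, and Cd200r3 encodes an activating receptor of the CD200R family.

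The cells were lineage-negative bone marrow cells of C57BL/6 mice aged 8 to 10 weeks, grown with GM-CSF at 20 ng/ml. On day 3 the medium received albumin (control) or heme-albumin at 300 µM (heme). Each treatment gave 1 droplet single-cell library that pooled cells of culture days 0, 3, 4, 5 and 7, told apart by antibody hashtags, and days 0 and 3 therefore come before any heme and serve as the background of each library. With 1 library per treatment there is no replicate and no test, so that every interval below is a 95% interval for counting error alone, and 2-fold is used as a descriptive limit for genes with 20 or more UMIs (unique molecular identifiers, the counted transcripts).

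The control library held 10870 kept cells and the heme library 10095, between 1509 and 2856 per culture, with 14654253 to 36128668 UMIs per culture and medians of 7907 to 15060 UMIs per cell. The libraries differed before treatment. On day 0, 78.1% of kept control cells and 26.2% of kept heme cells had 30% or more of their UMIs in ribosomal protein genes. Erythroid cells had 10 or more UMIs of Car1, Klf1 and Ermap. Those with fewer than 4 of the 8 genes made up 545 of 1613 control cells and 259 of 1509 heme cells. The gene limit removed 1.92 to 8.34% of control Singlets and 16.4 to 33.9% of heme Singlets. Hmox1 encodes the heme-degrading enzyme. On day 0 by hashtag, before heme, it stood at 1.79 CPM (counts scaled to 1000000 UMIs) in control and 126 CPM in heme. These levels are over the cells other than those with 4 or more of the 8 genes. All days of a library were pooled, and the part of hashtag calls or free RNA in these levels was not tested. The libraries shared 112 barcodes, which include 3 of the 441 cells described below.

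The genes lie on 8 different chromosomes of GRCm38. Mcpt8 is at chr14:56082166-56085273 on the minus strand, Prss34 at chr17:25298394-25300165 on the plus strand, Cpa3 at chr3:20215620-20242181 on the minus strand and Ms4a2 at chr19:11615523-11623719 on the minus strand. Fcer1a is at chr1:173221284-173227214 on the minus strand, Gata2 at chr6:88193891-88207032 on the plus strand, Cd200r3 at chr16:44943678-44981380 on the plus strand and Hdc at chr2:126593667-126619299 on the minus strand. All 8 are protein-coding, and the genes that overlap them in the annotation are a microRNA gene inside Mcpt8 and another inside Cpa3.

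Since Gata2, one of the 8 genes, encodes a GATA factor, the 300 bases around their starts (250 before to 50 after, RefSeq, GRCm38.p6) were searched for the core letters of GATA sites (AGATAA or AGATAG, or else TGATAA or TGATAG, on either strand). A match was found in the promoters of 6 of the 8 genes, against 9778 of 32851 promoters in the table (29.8%). The promoters of Prss34, Cpa3, Ms4a2 and Cd200r3 are shown because the last match before the start lay within 50 bases of it, 31, 46, 11 and 33 bases upstream. Capitals mark the match, with TTATCT and the like standing for a match on the other strand, and Mcpt8 is shown as a member without any.
Prss34, chr17:25298144-25298443, plus strand: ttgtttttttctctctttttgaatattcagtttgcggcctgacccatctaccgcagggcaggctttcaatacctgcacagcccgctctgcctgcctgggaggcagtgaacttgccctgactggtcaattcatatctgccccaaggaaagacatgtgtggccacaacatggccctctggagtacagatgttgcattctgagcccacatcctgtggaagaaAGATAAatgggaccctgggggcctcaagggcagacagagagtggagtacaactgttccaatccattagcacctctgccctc
Cpa3, chr3:20242132-20242431, minus strand: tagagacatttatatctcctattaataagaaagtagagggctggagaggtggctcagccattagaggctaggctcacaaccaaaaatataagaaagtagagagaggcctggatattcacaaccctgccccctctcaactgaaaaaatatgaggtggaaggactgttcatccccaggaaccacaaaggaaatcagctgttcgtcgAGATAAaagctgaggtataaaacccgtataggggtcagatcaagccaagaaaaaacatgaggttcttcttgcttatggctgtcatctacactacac
Ms4a2, chr19:11623670-11623969, minus strand: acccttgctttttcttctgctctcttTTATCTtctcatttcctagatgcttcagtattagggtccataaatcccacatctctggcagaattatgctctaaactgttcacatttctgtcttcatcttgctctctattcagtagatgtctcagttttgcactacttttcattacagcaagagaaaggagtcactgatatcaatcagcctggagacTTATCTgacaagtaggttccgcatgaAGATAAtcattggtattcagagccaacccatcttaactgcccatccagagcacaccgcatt
Cd200r3, chr16:44943428-44943727, plus strand: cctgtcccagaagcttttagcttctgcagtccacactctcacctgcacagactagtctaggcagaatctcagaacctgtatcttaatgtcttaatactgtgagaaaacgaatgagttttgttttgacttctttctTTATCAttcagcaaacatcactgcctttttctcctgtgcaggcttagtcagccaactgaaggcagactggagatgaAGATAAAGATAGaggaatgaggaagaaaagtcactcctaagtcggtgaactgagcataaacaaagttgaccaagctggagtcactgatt
Mcpt8, chr14:56085148-56085447, minus strand: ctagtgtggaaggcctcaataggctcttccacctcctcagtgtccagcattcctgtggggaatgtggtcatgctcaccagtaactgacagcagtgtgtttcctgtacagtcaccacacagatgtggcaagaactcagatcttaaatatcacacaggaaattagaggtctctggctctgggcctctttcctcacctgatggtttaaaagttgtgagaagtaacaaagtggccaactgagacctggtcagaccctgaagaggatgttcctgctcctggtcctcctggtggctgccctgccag
Fcer1a and Hdc also held a match, and Gata2 held none at either of its 2 listed starts. The letters TTNNGNAA, a C/EBP core, were in 3 of the 8 genes against 40.7% of all promoters, TGTGGT, a RUNX core, in 3 against 16.8%, and TTCNNNGAA, a STAT5 core, in none against 8.30%. These matches are letters in a window and not measured sites.

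The granule proteases were abundant in the day 0 marrow and were nearly gone by day 7. Over days 0, 3, 4, 5 and 7, Mcpt8 stood at 398, 93.8, 63.9, 25.3 and 6.62 CPM in control cultures, and at 673, 96.8, 45.3, 37.5 and 16.6 CPM in heme cultures. Each step down was larger than the counting error, and the libraries crossed over, with heme lower than control on day 4 and higher on days 5 and 7. Few cells held most of these UMIs, and UMIs of the same cell are not independent. In heme, 18 cells held 87.9% of Mcpt8 UMIs on day 4, and 17 cells held 81.9% on day 5. Counting error thus leaves out the sampling of cells, here and in the intervals below. Prss34 went from 768 CPM through 78.0, 65.4 and 24.8 to 8.47 in control, and from 961 through 66.8, 27.5 and 21.3 to 11.7 in heme. Here too heme was higher on day 0 and lower on days 3 to 5, with the order turned again on day 7. Cpa3 went from 111 CPM through 32.6, 22.0 and 18.4 to 2.02 in control and from 211 through 35.8, 16.9 and 22.7 to 6.52 in heme. Unlike the other proteases, Cpa3 was higher on day 5 than on day 4 in heme.

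Between day 0 and day 7, Mcpt8 was 60.2-fold lower in control (95% interval 52.9 to 68.8) and 40.5-fold lower in heme (36.9 to 44.7). For Prss34 the fall was 90.7-fold (80.9 to 102) in control and 82.1-fold (73.4 to 92.0) in heme. The intervals of Prss34 overlap between the libraries and those of Mcpt8 do not. Cpa3 was 55.0-fold lower (43.5 to 70.5) in control and 32.3-fold lower (27.8 to 37.8) in heme. Part of this loss came before heme was added. By day 3 Mcpt8 was 4.25-fold lower in control and 6.95-fold lower in heme, Prss34 9.84-fold and 14.4-fold, and Cpa3 3.41-fold and 5.89-fold. From day 3 to day 7 the further fall was 14.2-fold, 9.21-fold and 16.1-fold in control for the 3 genes in this order, and 5.83-fold, 5.71-fold and 5.48-fold in heme. The folds depend on which cells are kept. With cells at or above 30% ribosomal UMIs left out, the day 7 to day 0 log2 ratio in control went from -5.91 to -8.67 for Mcpt8, from -6.50 to -9.30 for Prss34 and from -5.78 to -8.08 for Cpa3. That of Cpa3 was smaller with every Singlet barcode kept, -5.13 in control, and -4.09 against -5.01 in heme.

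**Figure D1:**
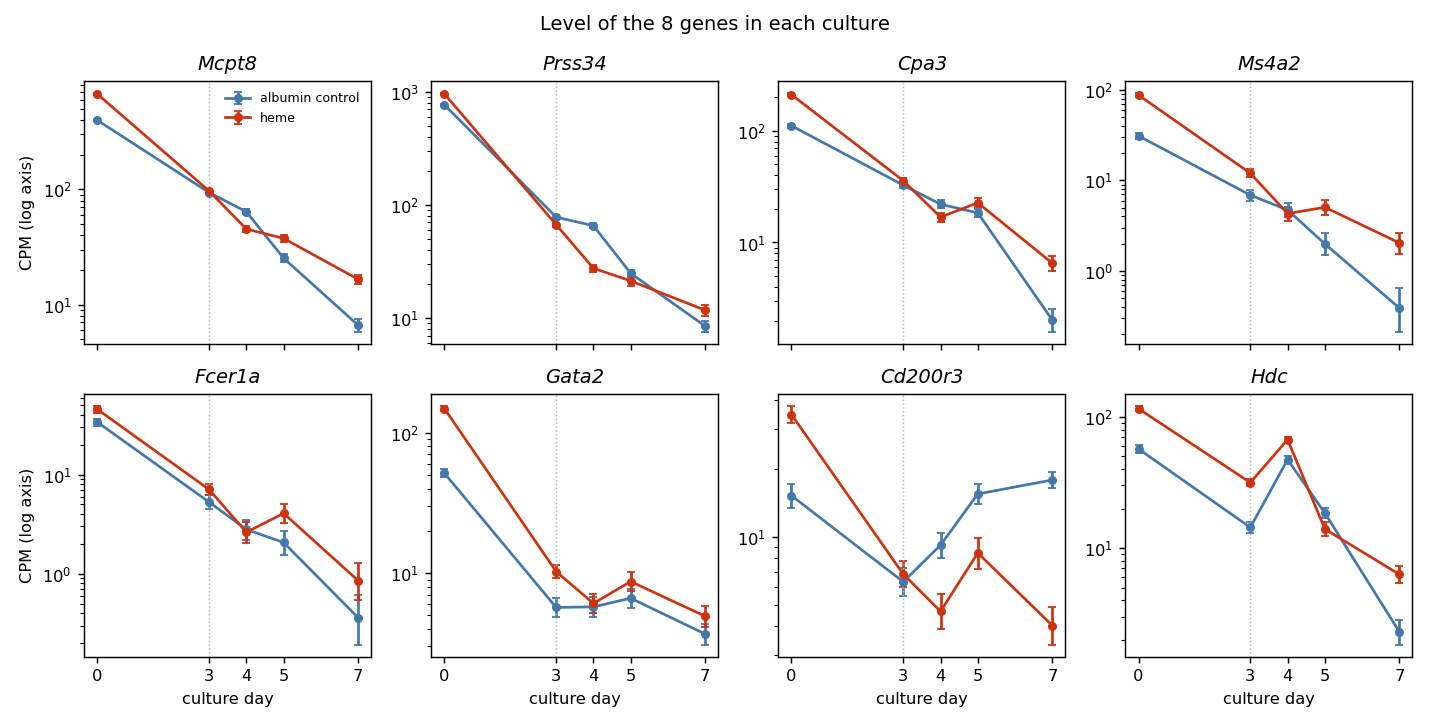
CPM (log axis) of each of the 8 genes by culture day in the control and heme libraries, with 95% Poisson intervals for counting error and a dotted line at the day of heme addition. In both libraries 7 of the genes end lower on day 7 than on day 0 by at least 14.0-fold, and Cd200r3 ends at 17.8 CPM in control and 4.04 CPM in heme.

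The chains of the IgE receptor followed the course of the proteases. Ms4a2, the beta chain, which amplifies the receptor's signal, went from 31.1 CPM on day 0 through 6.88, 4.71 and 1.99 to 0.388 on day 7 in control, and from 87.8 through 12.0, 4.30 and 5.05 to 2.04 in heme. Fcer1a, the chain that binds IgE, went from 33.9 CPM through 5.29, 2.80 and 2.07 to 0.360 in control and from 45.7 through 7.09, 2.62 and 4.07 to 0.852 in heme. The control culture of day 7 held 14 UMIs of Ms4a2 and 13 of Fcer1a, and their intervals are wide. The day 7 to day 0 fall of Ms4a2 was 80.3-fold in control with an interval from 47.5 to 148, and 43.1-fold (32.9 to 57.5) in heme. For Fcer1a it was 94.3-fold (54.7 to 178) and 53.7-fold (35.5 to 85.2), and these intervals overlap between the libraries for both chains.

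Gata2, the transcription factor, lost most of its level by day 3 and fell further by day 7, by 1.55-fold (1.22 to 1.96) in control and 2.08-fold (1.70 to 2.56) in heme. It stood at 51.5 CPM on day 0 in control, and then at 5.69, 5.75, 6.62 and 3.68, of which the days 3 to 5 cannot be ordered within their counting intervals. In heme it stood at 149, 10.3, 6.08, 8.71 and 4.93 CPM. The fall to day 7 was 14.0-fold in control (11.7 to 16.9) and 30.2-fold in heme (25.3 to 36.2). Heme started 2.88-fold higher, and on day 7 the ratio of heme to control was 1.34 (1.04 to 1.72).

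Hdc did not follow a straight course. It stood at 57.0 CPM on day 0 in control, fell to 14.4 on day 3, stood at 47.3 on day 4 and 18.5 on day 5, and ended at 2.30. In heme it stood at 115, 31.6, 67.2, 14.0 and 6.30 CPM. Day 4 was thus higher than day 3 in both libraries, by more than the counting error. By day 7 Hdc was 24.8-fold lower than on day 0 in control (19.8 to 31.4) and 18.3-fold lower in heme (15.6 to 21.6).

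Cd200r3 parted from the other 7 genes. In control it stood at 15.2 CPM on day 0, 6.30 on day 3, and then 9.16, 15.4 and 17.8 on days 4, 5 and 7. In heme it stood at 34.7, 6.82, 4.66, 8.45 and 4.04 CPM. The libraries were alike on day 3 (ratio of heme to control 1.08), and on day 7 the level in heme was 0.227 of that in control (0.183 to 0.278). From day 0 to day 7 the ratio was 1.17 in control (1.02 to 1.36), whereas heme was 8.59-fold lower (6.97 to 10.7). Both values depend on which cells are kept. With every Singlet barcode the day 7 to day 0 log2 ratio in heme was -1.48, and -1.49 without the upper gene limit, in place of -3.10, and heme against control on day 7 was -1.37 and -1.38 in place of -2.14. With cells at or above 30% ribosomal UMIs left out, the same ratio in control turned from 0.23 to -2.59, and was -3.62 in heme, so that both libraries fell. The limit left out 78.1% of kept control cells on day 0 and 10.3% on day 7.

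Counted over the list, 8 of 8 genes were 2-fold or more lower on day 3 than on day 0 in control, where 21.0% of all genes tested were, and 8 of 8 in heme, against 26.7% of all genes. On day 7 against day 0 it was 7 of 8 in control, against 26.6% of all genes, and 8 of 8 in heme, against 30%. The median log2 ratio of all genes from day 0 to day 7 was -0.22 in control and -0.41 in heme, and the losses of the 7 genes were far larger than this shift. With the ribosomal limit, the control log2 ratio went from -6.33 to -8.65 for Ms4a2, from -6.56 to -9.26 for Fcer1a, from -3.81 to -5.51 for Gata2 and from -4.63 to -6.94 for Hdc. In heme it was -4.73 in place of -5.43 for Ms4a2 and -4.21 in place of -4.92 for Gata2 with every Singlet barcode.

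Across the 10 cultures, log2(CPM + 1) of Mcpt8, Prss34, Cpa3, Ms4a2 and Fcer1a correlated with each other at Pearson's r of 0.943 to 0.980. These points share their library and their fall over time, so the values describe a common course. Cd200r3 correlated with the other 7 genes at 0.230 to 0.670, and Hdc with the 6 others apart from Cd200r3 at 0.683 to 0.838. Outside the list, the 10 genes most like the mean of the 8 over the 10 cultures (r from 0.972 to 0.99) were Dnajc7, Ptprcap, Fam117a, Rnase12, Myb, Icam2, Vbp1, Sytl3, Kit and Orc1. Rnase12 and Sytl3 stood out among them by where their UMIs were, with 86.9% and 70.0% of UMIs in the cells that held 4 or more of the 8 genes, while Dnajc7 had 1.28% there and Kit, the stem cell factor receptor, 2.31%.

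The 8 genes were found together in few cells. A cell with a UMI of at least 4 of the 8 is called a co-detecting cell here, and there were 441, of which 201 were in control and 240 in heme. They made up 132 of 1613 control cells on day 0 (8.18%, exact binomial interval 6.89 to 9.63%). On days 3, 4 and 5 there were 25, 22 and 18, or 1.31%, 1.04% and 0.755% of cells, and on day 7 there were 4 of 2856 (0.140%, 0.0382 to 0.358%). In heme they were 170 of 1509 cells on day 0 (11.3%, 9.71 to 13.0%), then 23, 18 and 17 on days 3, 4 and 5 (1.06%, 0.725% and 0.890%), and 12 of 2016 on day 7 (0.595%, 0.308 to 1.04%). The share fell sharply by day 3 in both libraries and persisted near 1% until day 5.

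Between the libraries, the share in heme minus that in control was 3.08 percentage points (0.961 to 5.22) for the marrow of day 0, before treatment. Day 3 gave a difference of -0.253 points (-0.982 to 0.445). After heme addition, day 4 gave -0.318 points (-0.926 to 0.253), day 5 gave 0.134 points (-0.438 to 0.748), and the last day, 7, gave 0.455 points (0.0944 to 0.909). Days 3, 4 and 5 showed no difference beyond counting error at this depth. The day 7 difference rests on 4 against 12 cells of a single culture each. On day 0 the order of the libraries depends on the limits placed on cells, since leaving out cells with 30% or more ribosomal UMIs gave 26.8% in control and 13.8% in heme.

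The course was the same at equal depth. Thinned to 3000 UMIs per cell, with 22 to 291 shallower cells left out per culture, the shares were 4.88, 1.01, 0.946, 0.717 and 0.0746% in control and 7.79, 1.02, 0.603, 0.866 and 0.525% in heme on days 0, 3, 4, 5 and 7. The co-detecting cells were themselves shallow, with medians of 3949 to 7211 UMIs in control and 5531 to 10214 in heme, and the thinning left out 51 of them in control and 42 in heme on day 0.

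**Figure D2:**
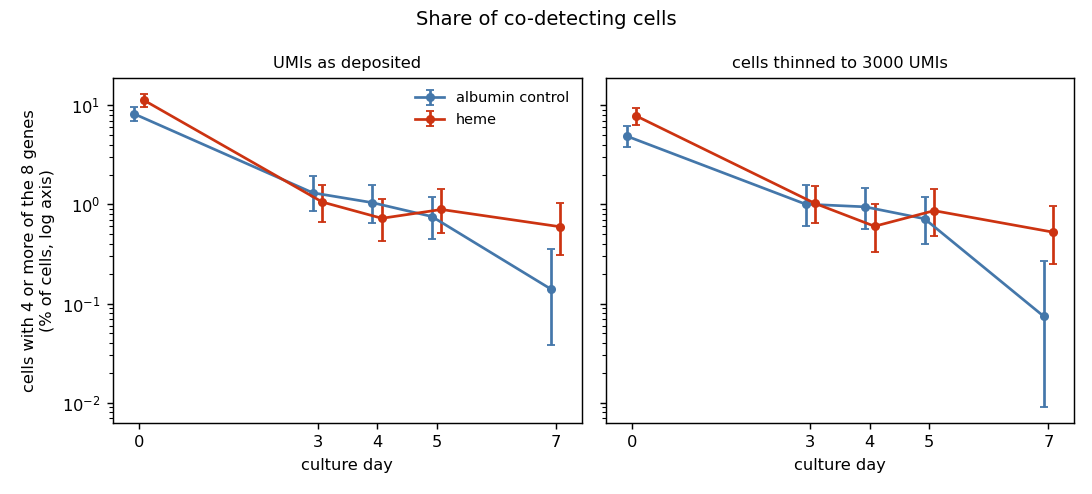
Share of cells with a UMI of 4 or more of the 8 genes, by culture day (log axis, percent of kept cells), in the control and heme libraries with exact binomial intervals. The share goes from 8.18% to 0.140% in control and from 11.3% to 0.595% in heme, with days 3 to 5 between 0.725 and 1.31%.

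Most co-detecting cells held nearly the whole list. On days 3 to 7 in control, 54 of 69 had a UMI of 7 or 8 of the genes (78.3%), and in heme 63 of 70 did. On day 0 it was 87 of 132 in control (65.9%) and 99 of 170 in heme (58.2%), where Cd200r3 (64.4% and 58.8% of co-detecting cells) and Fcer1a (72.0% and 63.5%) were the most often missing. On day 3 in heme all 23 co-detecting cells held all 8 genes. Cells with exactly 3 genes numbered 37 in control and 32 in heme over the 4 later days, against 69 and 70 co-detecting cells, so the later shares depend on the limit of 4. On day 7 in control 10 cells held exactly 3 genes and 4 held more, and the share was 0.490% with 3 or more genes in place of 0.140%. On day 0 there were 34 and 60 such cells just outside the limit, and 15 and 31 with exactly 4 just inside it.

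**Figure D3:**
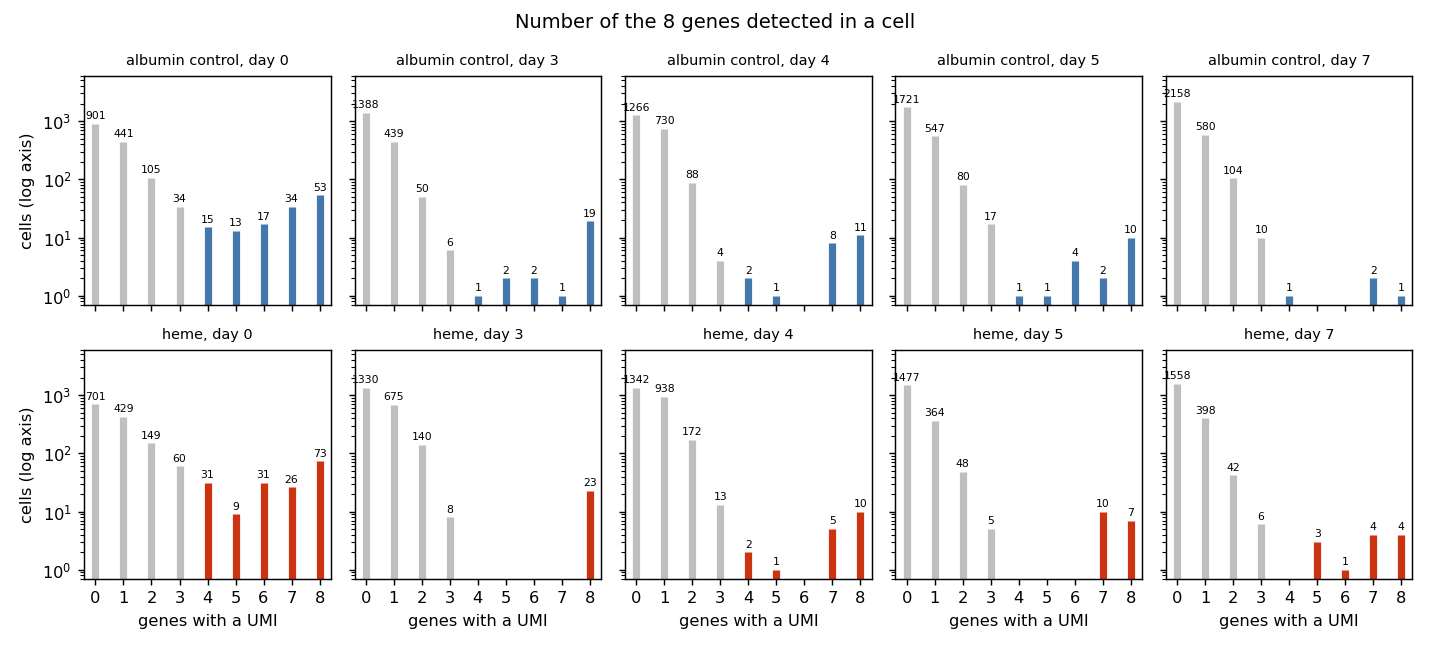
Number of cells (log axis) by how many of the 8 genes had a UMI, for each culture day of the control and heme libraries. Cells with 4 to 6 genes are few after day 0, with 23 of 23 co-detecting heme cells at 8 on day 3.

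Seen pair by pair, a cell with 1 of the rarer genes was likely to hold Mcpt8 on day 0 and less so later. Of control cells with a UMI of Fcer1a, 84.9% also had Mcpt8 on day 0 and 62.0% on days 3 to 7, where Mcpt8 was found in 14.9% and 5.27% of all cells. Of those with Cd200r3, 93.1% had Mcpt8 on day 0 and 13.3% on days 3 to 7. The matching shares in heme were 90.4% and 63.7% for Fcer1a, and 92.5% and 34.9% for Cd200r3. Of Hdc-positive cells, 54.9% in control and 54.1% in heme had Mcpt8 on day 0, against 9.34% and 10.6% on later days. Fcer1a thus stayed with Mcpt8 far more than Cd200r3 or Hdc did.

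The UMIs of each gene were then traced to kinds of cells. On day 0, 97.3% of Mcpt8 UMIs and 99.4% of Prss34 UMIs in control were in co-detecting cells, which held 3.29% of all UMIs of the culture. On day 7 the shares were 45.6% and 39.9% in control, and 67.4% and 55.7% in heme, in which 4 and 12 cells carried them. The remainder was spread thinly. Mcpt8 was found in 3.71 to 14.6% and Prss34 in 4.22 to 12.2% of cells in each group of neutrophil-type cells (50 or more UMIs of Camp, Ngp and Ltf), MHC class II cells (200 or more of Cd74, H2-Aa and H2-Ab1) and erythroid cells, at median depths of 6814 to 22148 UMIs. These cell types should lack both genes, and the part of free RNA in the shares was not tested. Fcer1a was found in at most 1.27% of any such group, and Ms4a2 in at most 3.30%.

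Cpa3 was slightly wider on day 0. Of its UMIs, 82.5% in control and 86.6% in heme were in co-detecting cells, and 64.4% and 69.3% on day 7. It reached 4.63% of cells in a reference group at most.

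Gata2 was shared with other cells from the start. On day 0, 45.1% of its UMIs in control and 56.4% in heme were in co-detecting cells, while erythroid cells held 19.0% and 10.2%, and cells in none of the named groups held 35.8% and 33.4%. It had a UMI in 19.6% of erythroid cells in control and 37.1% in heme (7.35% and 13.9% after thinning), at median depths of 18260 and 18097 UMIs, well above the share of any other of the 8 genes there. On day 7 the MHC class II cells, which were 1002 of 2856 control cells and 90 of 2016 heme cells, held 65.4% of Gata2 UMIs in control and 1.50% in heme, and co-detecting cells held 9.02% and 72.9%.

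Hdc on days 3 and 4 lay mostly in neutrophil-type cells, which were 56.2% of control and 68.3% of heme cells on day 4. These held 71.2%, 80.6% and 58.0% of its UMIs in control and 78.5%, 89.9% and 46.5% in heme on days 3, 4 and 5. Hdc was found in 22.4%, 43.6% and 27.7% of them in control and in 33.5%, 47.1% and 18.3% in heme, against 1.27 to 4.80% of MHC class II cells, which were deeper. After thinning the range was 6.39 to 23.2% against at most 0.962%, so that the difference between the types remained at equal depth. Per UMI, Hdc stayed higher in co-detecting cells, at 773 CPM in control on day 4 against 78.8 CPM in neutrophil-type cells.

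Cd200r3 moved from one kind of cell to another in control. On day 0, 98.9% of its UMIs were in co-detecting cells, and on day 7 this was 1.87%, while MHC class II cells held 66.7%. Cd200r3 was found in 14.6%, 16.4%, 20.1% and 19.3% of MHC class II cells in control on days 3, 4, 5 and 7, and in 10.6%, 4.31%, 8.23% and 12.2% in heme, against at most 1.82% of neutrophil-type cells. After thinning it was 3.85 to 5.78% in control and 1.72 to 3.85% in heme. On day 7, MHC class II cells were 35.1% of control and 4.46% of heme kept cells, and their Cd200r3 level was 25.7 CPM in control and 11.4 CPM in heme, both far below the 392 and 591 CPM of co-detecting cells.

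The CD200R family genes lie close together in sequence, and reads shared among them were not separated here, so this assignment is uncertain. In the same MHC class II cells Cd200r1, the inhibitory receptor, was found in 58.0 to 82.2% and Cd200r4, an activating one, in 31.5 to 66.7%, whereas Cd200r2 reached at most 0.440%.

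**Figure D4:**
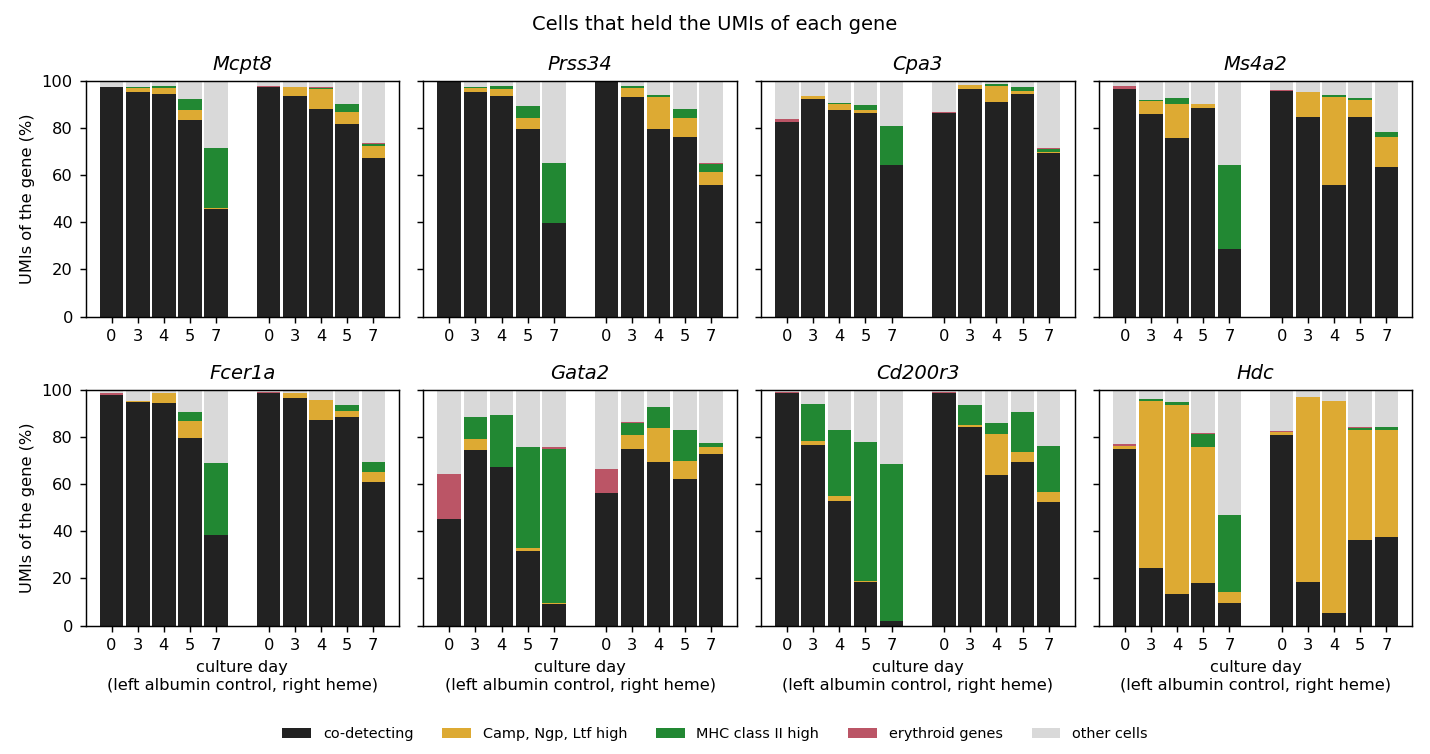
Percent of each gene's UMIs, by culture day and library, that lay in co-detecting cells, neutrophil-type cells, MHC class II cells, erythroid cells and all other cells, as stacked bars that add to 100%. Hdc lies mostly in neutrophil-type cells on days 3 and 4, and 66.7% of Cd200r3 lies in MHC class II cells on day 7 in control.

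Pooled over days 3 to 7, the levels of the 8 genes within co-detecting cells stood at 0.349 to 1.58 of those on day 0. As these genes chose the cells, the values are a description. Mcpt8 stood at 11784 CPM on day 0 and 8908 CPM over days 3 to 7 in control, and at 8459 and 7833 CPM in heme. Prss34 moved more, from 23206 to 8104 CPM in control and from 12316 to 4947 CPM in heme, a ratio of 0.349 and 0.402. Prss34 and Fcer1a (ratio 0.481) were the 2 of 8 genes past 2-fold lower in control, where 8.39% of all genes tested were, and Prss34 was the 1 of 8 in heme, where 13.7% were. Cd200r3 and Cpa3 stood higher on the later days, at ratios of 1.42 and 1.22 in control and 1.58 and 1.41 in heme, and no gene of the 8 was past 2-fold higher (7.77% and 7.96% of all genes). Most of the pooled cells are of days 3 and 4, and the levels of several genes were lower by day 7. In the 4 control and 12 heme cells of day 7, Mcpt8 stood at 3558 and 3133 CPM and Prss34 at 3982 and 1826 CPM. Ms4a2 stood at 131 CPM in control, from 916 on day 0, and at 363 in heme, from 1085. Fcer1a went from 1007 to 163 CPM in control and from 582 to 145 CPM in heme. Gata2 was nearly level in heme, with 1081 and 1006 CPM, and lower in control, with 707 and 392. Thus the fall of the culture levels of Mcpt8, Prss34, Ms4a2 and Fcer1a to day 7 went with fewer co-detecting cells and with a lower level in those that were left. The day 7 levels in control rest on few counts. Of the 4 cells, 1 held 57 of the 109 UMIs of Mcpt8 and 40 of the 122 of Prss34. The 4 cells together held 4 UMIs of Ms4a2 and 5 of Fcer1a.

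Co-detecting cells held other basophil genes and almost no mast cell proteases. Of the 9 basophil markers outside the list, all that had enough UMIs to be tested were 2-fold or more higher in co-detecting cells than in the others, 8 of 8 on day 0 and 7 of 7 on days 3 to 7 in control and 8 of 8 in both periods in heme, against 14.1%, 12.6%, 7.63% and 12.9% of all genes. Cyp11a1, a steroid-making enzyme, stood at 276 CPM against 1.15 CPM on day 0 in control. Il4 stood at 69.5 against 0.577 CPM, and Il3ra, the IL-3 receptor alpha chain, at 153 against 18.4 CPM. Their summed level over the whole list of 14, members included, was 12919 to 38650 CPM, and 97 to 466 CPM in the other cells.

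By contrast, the 8 mast cell proteases outside the list (Cma1, Mcpt1, Mcpt2, Mcpt4, Mcpt9, Tpsb2, Tpsab1 and Tpsg1) had 8 UMIs in all 441 co-detecting cells, found in 6 cells. Of the 15 mast cell markers outside the list, 5 had enough UMIs. In control 1 was higher and 2 were lower on day 0, and 3 were higher and 2 lower on later days. In heme the counts were 1 and 0, then 3 and 2. Of all genes in control, 14.1% were higher and 17.8% lower on day 0, and 12.6% and 29.7% later. In heme 7.63% were higher and 12.1% lower on day 0, and 12.9% and 25.7% later. Il1rl1, the IL-33 receptor, was among the higher mast cell markers, with 45.8 CPM against 15.7 CPM on day 0 in control. Kit stood at 42.4 CPM against 80.5 CPM on day 0 in control and 99.4 against 121 CPM in heme. The 8 genes were thus found together in cells with the other basophil markers high and mast cell proteases at or near 0. The mast cell markers with enough UMIs were mixed, with 3 of 5 higher and 2 lower on days 3 to 7 in both libraries.

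Among pathway genes outside the 8, the cytokines and chemokines were 2-fold or more higher in co-detecting cells for 8 of 9 on day 0 and 7 of 9 later, in both libraries, with 1 lower later in each. For this and the next lists, of all genes tested in control 14.1% were higher on day 0 and 12.6% later. In heme it was 7.63% and 12.9%. The shares lower were 17.8% and 29.7% in control, and 12.1% and 25.7% in heme. Ccl3 stood at 1345 CPM against 27.8 CPM on day 0 in control, and Il6 at 61.0 against 0.461 CPM. For IgE receptor signalling it was 8 of 14 on day 0 and 5 of 14 later in control, and 7 and 6 of 14 in heme, with 1 lower later in control and Fcer1g, the chain the IgE receptor shares with other Fc receptors, at 1633 against 218 CPM on day 0 in control. Cytokine receptors were higher for 6 of 8 and 5 of 8 in control and 6 of 8 in both periods in heme, and lower for 2 and 1 of 8 on the later days in control and heme. Amine and granule genes were higher for all 4 tested in control and for 4 of 4 and 5 of 5 in heme, with Slc18a2, which loads amines into granules, and Srgn, the granule proteoglycan, among them (Srgn 2715 against 611 CPM on day 0 in control). Lineage transcription factors were higher for 4 of 11 and 5 of 11 in control and for 3 and 6 of 11 in heme, and lower for 2 and 1 in control and 0 and 1 in heme. Lipid mediator enzymes were higher for 3 of 6 in both periods in control and for 3 and 2 of 6 in heme, and on the later days as many were lower, 3 in control and 2 in heme (median log2 ratios -0.51 and -0.88). Among the higher ones was Alox5 at 212 against 2.54 CPM on day 0 in control. None of the 10 cycling genes passed 2-fold in either direction in either library, and Mki67 stood at 304 against 311 CPM on day 0 in control.

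Lists of other cell types were mostly lower on days 3 to 7, when 29.7% of all genes tested in control and 25.7% in heme were lower in co-detecting cells. The dendritic cell list was 2-fold or more lower for 7 of 7 genes in both libraries, the neutrophil list for 7 of 8 in both, and the macrophage list for 6 of 7 in control and 5 of 7 in heme. The stem and early progenitor list was lower for 5 of 6 in control and 3 of 6 in heme, and the granulocyte-monocyte progenitor list was lower for 2 and higher for 2 of 6 in both. The erythroid list was lower for 3 of 5 in control and 2 of 5 in heme, and the megakaryocyte list for 3 of 5 in both. On these days 2 megakaryocyte genes, 1 erythroid gene and 1 macrophage gene were 2-fold or more higher in each library. Of all genes, 12.6% were higher in control and 12.9% in heme. On day 0, 17.8% of all genes were lower in control and 12.1% in heme. The neutrophil list was then lower for 2 and 1 of 8, and the dendritic cell list for 2 of 6 and 2 of 7. The erythroid list was lower for 4 of 5 in both. Of the 441 cells, 6 passed the threshold for neutrophil-type cells, 2 that for MHC class II cells and 4 that for erythroid cells.

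Ranked by how concentrated they were in co-detecting cells over both libraries, the 20 leading genes outside the list included Prg2, Cyp11a1, Csrp3, Rnase12, Hgf, Akr1c18, Ikzf2, Itga2b, Slc18a2, Padi2, Apoe, Epx, Il1rl1, Slpi, F2r, Tespa1, Fut8, Il6 and Grm6. Cyp11a1 was found in 324 of the 441 cells and Ikzf2 in 321. Prg2 and Epx, granule proteins of eosinophils, led through few cells, 28 and 18. Akr1c18 was found in 40 cells, and in 0 of the 302 co-detecting cells of day 0, which allows up to 0.993% of cells with a UMI of it. Those cells were shallow, with medians of 3949 UMIs in control and 5531 in heme, and cells with a low level of Akr1c18 would not be seen.

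The cells with 10 or more UMIs of Prg2, Epx and Prg3, a limit chosen after the values were seen, were 13 and held 1976 of the 2030 such UMIs in co-detecting cells. In control on day 4, 2 of these cells held 831 of 837 such UMIs, and had 16 UMIs of Mcpt8 and 0 of Prss34. In heme on day 5, 2 cells held 515 of 520, and had 13 UMIs of Mcpt8 and 5 of Prss34. Others held more of both proteases, with 135 UMIs of Mcpt8 and 125 of Prss34 in 3 control cells of day 5, 57 and 40 in 1 control cell of day 7, and 208 and 297 in 3 heme cells of day 0. Of the eosinophil list, 4 of 4 genes tested were 2-fold or more higher in co-detecting cells on day 0 in control and 3 of 5 in heme. Of all genes, 14.1% and 7.63% were. On later days 4 of 6 were higher and 2 lower in both libraries. Of all genes, 12.6% were then higher and 29.7% lower in control, and 12.9% and 25.7% in heme. Co-detection of 4 of the 8 genes thus takes in a few cells rich in eosinophil granule transcripts.

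Over time the co-detecting cells themselves differed between day 0 and days 3 to 7. Ccl6, a chemokine, stood at 719 CPM on day 0, 9721 on day 3 and 14711 over days 4 to 7 in control, and at 518, 7269 and 17017 CPM in heme. Csf2rb stood at 229, 560 and 851 CPM in control and at 304, 805 and 1776 CPM in heme. Mpo, the myeloperoxidase of granulocyte-monocyte progenitors, went the other way, from 2013 through 448 to 243 CPM in control and from 3402 through 710 to 70.9 CPM in heme. Of the granulocyte-monocyte progenitor list, 4 of 6 genes were 2-fold or more lower on days 3 to 7 than on day 0 in control. In heme 5 of 6 were. Of the stem and early progenitor list it was 2 of 2 in control and 4 of 4 in heme. Of all genes tested in this comparison, 8.39% were lower in control and 13.7% in heme. Csf2rb was also higher in the other cells on the later days, at 22.1 CPM on day 0 and 546 CPM over days 3 to 7 in control.

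**Figure D5:**
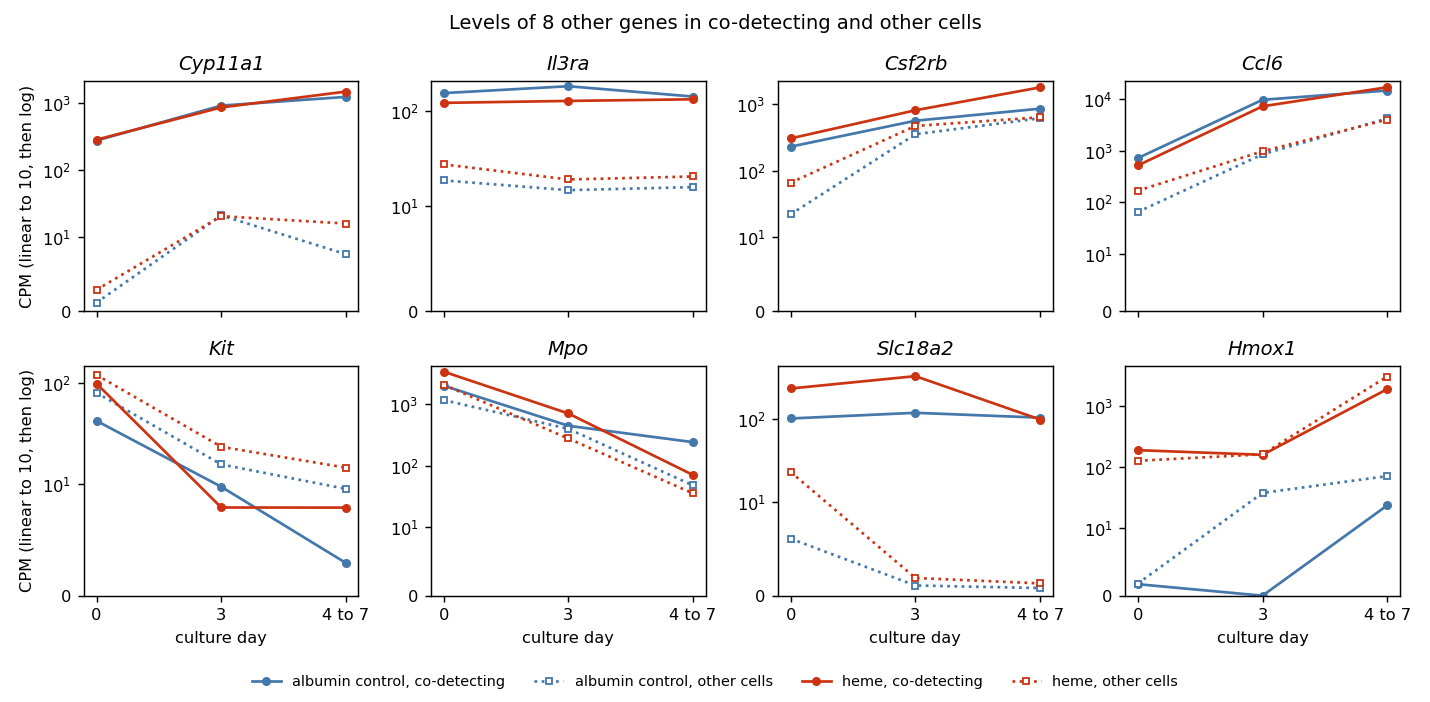
CPM of 8 genes outside the list (Cyp11a1, Il3ra, Csf2rb, Ccl6, Kit, Mpo, Slc18a2 and Hmox1, chosen after their values were seen) in co-detecting cells (solid lines) and all other cells (dotted lines) on day 0, day 3 and days 4 to 7; the axis is linear to 10 CPM and logarithmic above. Ccl6 and Csf2rb end higher and Mpo lower in co-detecting cells of both libraries, and Hmox1 stands at 1883 CPM in heme and 23.4 CPM in control over days 4 to 7.

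Comparison of the treatments asks whether heme changed the 8 genes. Before treatment, on day 0, the ratios of heme to control were 1.69 for Mcpt8, 1.25 for Prss34, 1.90 for Cpa3, 2.82 for Ms4a2, 1.35 for Fcer1a, 2.88 for Gata2, 2.28 for Cd200r3 and 2.03 for Hdc, so that 4 of 8 were 2-fold or more higher, against 24.9% of all genes, and none lower, against 1.29%. This order rests on which cells are kept. With cells at or above 30% ribosomal UMIs left out, all of these but Gata2 turned lower in heme (Mcpt8 log2 ratio -1.55), and Prss34 and Fcer1a turned also when the upper gene limit was dropped and under both other scalings. On day 3, still before heme, Hdc was the 1 of 8 past 2-fold higher (ratio 2.20), against 7.90% of all genes, and none was lower, against 0.563%.

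On day 7, after 4 days with heme, 5 of 8 were 2-fold or more higher in heme, against 15.6% of all genes, and 1 was lower, Cd200r3, against 7.86%. The 5 were Ms4a2 with a ratio of 5.26 (2.88 to 10.2), Cpa3 with 3.23 (2.44 to 4.30), Hdc with 2.74 (2.10 to 3.61), Mcpt8 with 2.51 (2.14 to 2.95) and Fcer1a with 2.37 (1.15 to 5.09). Prss34 stood at 1.38 (1.18 to 1.62) and Gata2 at 1.34. The median log2 ratio of all genes was 0.30 in this comparison. On day 4 the ratios of Mcpt8 and Prss34 were on the other side, 0.708 and 0.421, and on day 5 they were 1.48 and 0.857, so the direction was not kept over the 3 harvest days after heme addition. With every Singlet barcode kept, 3 of the 8 were past 2-fold higher on day 7. UMIs of few cells make up these levels, as given above (4 co-detecting cells in control and 12 in heme on day 7), and UMIs of 1 cell are not independent, so that these intervals are too narrow for the cells sampled.

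Within co-detecting cells of days 4 to 7, 44 in control and 47 in heme, none of the 8 was 2-fold or more higher in heme, against 15.5% of all genes tested, and Prss34 was lower, against 6.46%. Prss34 stood at 2869 CPM in heme and 6537 CPM in control, a ratio of 0.439 (0.408 to 0.472). Gata2 was at a ratio of 1.70 (1.41 to 2.06), Mcpt8 at 0.801 and Cpa3 at 0.892, and the intervals for Ms4a2, Fcer1a, Cd200r3 and Hdc included 1. As the 8 genes chose these cells, the ratios are a description. UMIs of the same cell are not independent, so the intervals are too narrow for the cells sampled. These cells come from 3 cultures per library in unlike numbers, with 22 control cells and 18 heme cells from day 4 and 4 and 12 from day 7, and their Prss34 level also fell with the day. Day by day it was 7578, 5133 and 3982 CPM in control and 4029, 2331 and 1826 CPM in heme on days 4, 5 and 7. It was also lower in heme before treatment, with 12316 against 23206 CPM on day 0 and 8070 against 10715 CPM on day 3.

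In the same cells the genes of the heme and oxidant response were higher in heme. Of the 9 tested, 8 were 2-fold or more higher. Hmox1 stood at 1883 CPM in heme and 23.4 CPM in control, a ratio of 80.5 (40.6 to 187), while in other cells it stood at 3033 and 70.6 CPM. Gclm, a subunit of the enzyme that makes glutathione's precursor, stood at 738 and 170 CPM (ratio 4.35), and Fth1, the ferritin heavy chain, at 16844 and 5277 CPM (ratio 3.19). In heme, Hmox1 stood at 188 CPM in co-detecting cells of day 0 by hashtag and at 158 CPM on day 3. In control it stood at 1.70 CPM on day 0 and had no UMI on day 3, which allows up to 14.6 CPM. The libraries thus differed in cells called as days before heme. All days of a library were pooled, heme-treated cells included, and the part of hashtag calls or free RNA was not tested.

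Over the same 47 and 44 cells, 7 of 8 neutrophil genes were higher in heme as well, with S100a8 at 9738 against 658 CPM. Without the 3 heme and 2 control cells that passed a threshold of another cell type, an alternative chosen after the data were seen, 3 of 7 neutrophil genes were higher, S100a8 stood at 2381 against 676 CPM, and 8 of 9 heme and oxidant response genes were still higher. The ratio of Prss34 was then 0.406. Of the cycling list, 5 of 10 genes were 2-fold or more lower in heme over all 47 and 44 cells and 6 of 10 without those cells. Of the dendritic cell list it was 4 of 4 tested over all cells and 1 of 4 without them, so that count rests on the cells past a threshold. Over all cells Csf2rb stood at 1776 CPM in heme and 851 CPM in control, and Il1rl1 at 496 and 269 CPM.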

How the data were processed

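The 2 pooled droplet libraries (Chromium Single Cell 3′ v3.1) were analysed. The authors deposited filtered gene count matrices made with Cell Ranger (4.0.0 in the study's methods and 5.0.0 in the matrix headers) on GRCm38.p6, and hashtag calls from HTODemux in Seurat 3.2.3. The deposited counts are UMIs and were not normalized.

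Singlet barcodes with 500 to 5000 detected genes and under 15% mitochondrial UMIs were kept, with no ribosomal limit, and Doublet and Negative barcodes were left out. Doublets within 1 culture day carry 1 hashtag and stay in. UMIs were summed by library and hashtag day and scaled to CPM. Exposure times in the sources differ for day 5, so culture days are used. Levels carry exact Poisson intervals, ratios exact conditional ones and shares Clopper-Pearson ones, all at 95% and for counting error only. With 1 library per treatment no test was run. A ratio past 2-fold was counted for genes with 20 or more UMIs over both sides. The ratios, their intervals, the 2-fold calls and the thinning were tested on simulated counts. Those counts were independent draws, so this check does not cover UMIs that lie together in few cells.

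The 8 genes and the marker and pathway lists were chosen with earlier results of these data known. All 8 are reported in every culture. Other genes are named as the 10 most correlated with the mean of the 8 over the cultures, the 20 with the highest ratio of CPM + 10 between co-detecting and other cells, and up to 4 genes per list with the highest CPM in co-detecting cells. Genes of the lists named outside this rule were chosen after their values were seen. A planned gene of the erythroid threshold and list and a gene of the 20 are not reported here, and the erythroid values were computed without the former.

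Promoters are from RefSeq (GRCm38.p6) and gene positions from GENCODE M21, which may differ from the annotation used for counting. Alternatives covered the cell limits, the ribosomal limit, shared barcodes, the UMI minimum, thinning to 3000 UMIs, the number of genes that define co-detection, and scaling by TMM (edgeR 4.0.16) or size factors (DESeq2 1.42.0, R 4.3.3). Intervals were computed with scipy 1.17.1 in Python 3.11.15.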

Additional observations from a re-analysis of the deposited data

Results flagged for a closer look

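Barcodes left out of every comparison also held the 8 genes together. Of the barcodes called Doublet, 59 of 1259 in control (4.69%, 3.59 to 6.00%) and 110 of 1996 in heme (5.51%, 4.55 to 6.60%) had a UMI of 4 or more, and 36 and 69 of these carried the day 0 hashtag as 1 of their tags. Their median depth was 17928 and 32372 UMIs. Of the Negative barcodes, 6 of 652 in control (0.92%) and 47 of 1218 in heme (3.86%) did, at median depths of 1827 and 2611 UMIs. These barcodes have no single culture day, and their part in the results was not tested.

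Cd200r3 moved in opposite directions in the libraries over the kept cells. From day 0 to day 7 its log2 ratio was 0.23 in control and -3.10 in heme, and from day 3, the last day before heme, it was 1.50 in control and -0.76 in heme. With cells at or above 30% ribosomal UMIs left out, the log2 ratio from day 0 to day 7 was -2.59 in control and -3.62 in heme, the same direction. The difference was not tested, since each library stands alone. MHC class II cells, which held 66.7% of its UMIs in control on day 7, were 35.1% of kept cells in control and 4.46% in heme that day.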

How the results depend on the processing

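The loss of the 8 genes from day 0 to day 7 kept its count (7 of 8 in control, 8 of 8 in heme) under the alternatives run for it, except for 8 in control with the ribosomal limit. Of 60 values of the main results under alternatives 48 stayed within the limits set and 12 moved. With every Singlet barcode, the genes past 2-fold higher in heme on day 7 were 3 in place of 5. The share of co-detecting cells on day 0 in control was 26.8% with the ribosomal limit, 10.3% with 3 or more genes and 4.88% after thinning, and 0.490% on day 7 with 3 or more genes. In heme on day 0 it was 9.64% with every Singlet, 13.8% with the ribosomal limit, 9.69% without the upper gene limit, 15.2% and 9.21% with 3 or 5 genes, 9.68% with 3 of 6 genes without Gata2 and Hdc, and 7.79% after thinning.

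Of 192 log2 ratios of single genes, 93 stayed, 82 moved and 17 reversed. With the ribosomal limit, heme against control on day 0 became -1.55 for Mcpt8, -2.01 for Prss34, -1.09 for Cpa3, -0.57 for Ms4a2, -1.92 for Fcer1a, -1.22 for Cd200r3 and -1.07 for Hdc, and Cd200r3 in control from day 0 to day 7 became -2.59. That limit removes 78.1% of control cells and 26.2% of heme cells on day 0. Of the co-detecting cells of that day it removes 28.0% in control and 9.41% in heme. Also on day 0, Prss34 and Fcer1a were -0.33 and -0.23 with every Singlet, -0.34 and -0.22 without the upper gene limit, -0.13 and -0.03 with DESeq2 size factors and -0.12 and -0.01 with TMM. On day 7 Prss34 was -0.10 with every Singlet. The cause of these shifts between limits was not tested. No paired analysis was possible because each treatment has 1 library and the labels carry no replicate numbers.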

Other observations

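Several genes concentrated in the co-detecting cells differed between the days in ways the lists did not cover. Slpi, a secreted protease inhibitor, stood at 276 CPM on day 0, 2314 on day 3 and 4400 over days 4 to 7 in control, and at 143, 2099 and 5582 CPM in heme. F2r, the thrombin receptor, stood at 17.0, 156 and 167 CPM in control and at 7.91, 154 and 607 CPM in heme. Apoe, the lipid carrier, went the other way, from 936 through 43.9 to 35.1 CPM in control and from 589 through 23.7 to 7.88 CPM in heme. Csrp3, a muscle LIM protein, went from 517 through 166 to 64.3 CPM in control and from 285 through 114 to 57.8 CPM in heme. Hgf, which encodes hepatocyte growth factor, stood at 144, 365 and 477 CPM in control and at 260, 722 and 762 CPM in heme. These courses come from 4 to 170 cells per culture and have no replicate.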
